A study of Mus musculus with 45 samples.

Results

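The 4 genes of the POU class III family (Pou3f1, Pou3f2, Pou3f3 and Pou3f4) and the long non-coding RNA Pantr1 were followed through the reprogramming of mouse neural progenitors to pluripotency. They were taken by name as 5 of the 23575 rows of a table of gene expression and as the 75 of 276608 rows of a transcript table that belong to them, and all 5 were present. The question asked of them was whether Pantr1, which is transcribed away from Pou3f3 on the opposite strand, rises and falls with its neighbour. Expression had been measured by Oxford Nanopore long-read RNA sequencing in 45 libraries. Gene values are CPM, reads scaled to the size of the library (read counts relative to the library total), and transcript values are TPM, which also divide by transcript length.

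All cells go back to the mouse embryonic stem cell line R1, in most groups through its derivative O4G, which carries a GFP reporter under the Oct4 promoter. Progenitors (NPC) derived from O4G were wild type (WT) or were stably transfected lines with genotype OKMS-Luciferase-AS or OKS-Luciferase-AS, in which doxycycline switches on the reprogramming factors. The name OKS leaves out the M that stands for Myc. The role of the luciferase element is not given in the labels, nor whether a line is a clone. Progenitors in NPC medium, with EGF and FGF-2, gave 8 libraries. For induction, cells were reseeded on gelatin and moved to medium with serum, LIF and doxycycline (FBS-LIF + dox, called serum medium here). Wild-type cells stayed in it for 2 days, and OKMS and OKS cells for up to 20 days. Other cultures went on in 2i-LIF, which has no serum and holds LIF and inhibitors of the kinases GSK3 and MEK, from day 6 in the R9 libraries. That day is not given for the R10 libraries. Embryonic stem cells (ESC) of lines O4G, R1 and R1-Clone3 were grown in 2i-LIF. The 22 R9 libraries were direct cDNA of polyadenylated RNA and the 23 R10 libraries were amplified cDNA of total RNA, so the chemistries were tested apart except where stated. Most conditions after induction had 1 library per chemistry. Nothing in the labels says that libraries of a group came from separate cultures, so p-values measure the spread between these libraries, which may be technical.

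POU class III proteins bind the octamer element and its variants through a POU-specific domain and a homeodomain joined by a linker, and they often act beside SOX proteins. Pou3f2 (Brn2), Pou3f3 (Brn1) and Pou3f4 (Brn4) act in neural progenitors and young neurons. Pou3f1 (Oct6) is known from Schwann cells, keratinocytes and the epiblast that forms after the naive state. Pantr1 is a spliced non-coding RNA of the developing cortex.

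The Pantr1 transcripts used a pair of alternative first exons that lie at different distances from Pou3f3, and the results below turn on them. The one nearer to Pou3f3 is printed here, since the class of Pantr1 transcripts called near below is defined by it. The line gives the first exon in capitals and the start of the second exon (30 bases) in lower case, 5′ to 3′ on the minus strand, from the sequences and annotation of GENCODE M21 (GRCm38).
Pantr1 first exon near Pou3f3: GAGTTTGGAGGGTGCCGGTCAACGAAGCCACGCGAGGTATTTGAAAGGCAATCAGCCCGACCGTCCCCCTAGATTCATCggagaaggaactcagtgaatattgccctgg
The near exon, of ENSMUST00000188153, covers chr1:42694747-42694825 (79 bases) and starts 943 bases upstream of the annotated Pou3f3 start at 42695768 on the plus strand. The other first exon, called the far one below, lies farther from Pou3f3.

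The Pou3f3 promoter window is printed to show the Pou3f3 end of the stretch between the annotated starts, and it does not reach the near exon. It covers chr1:42695518-42695817 on the plus strand, 250 bases before to 50 after the RefSeq start (GRCm38.p6), with the CCAAT box in capitals.
Pou3f3 promoter: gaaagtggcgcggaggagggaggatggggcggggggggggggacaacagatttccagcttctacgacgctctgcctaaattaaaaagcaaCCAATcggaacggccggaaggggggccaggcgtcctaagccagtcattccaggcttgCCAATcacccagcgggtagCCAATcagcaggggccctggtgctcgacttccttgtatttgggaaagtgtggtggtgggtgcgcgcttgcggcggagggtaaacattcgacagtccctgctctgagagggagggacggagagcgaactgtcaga
Promoter windows were given for 3 of the 5 members. CCAAT, searched on both strands, occurred 3 times in the Pou3f3 window, 3 times in that of Pou3f4 and 2 times in that of Pou3f2. Of 32851 promoter windows of the same length, 37.4% held it at least 1 time, 11.7% at least 2 times and 3.37% at least 3 times. The octamer ATGCAAAT, also searched on both strands, was in none of the 3 windows and in 1.74% of all windows.

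In the deposited annotation Pou3f3 spans chr1:42695733-42704805 on the plus strand and Pantr1 chr1:42648198-42698840 on the minus strand, so the spans overlap. The overlap came from 4 Pantr1 transcripts that run back into Pou3f3, none above a mean of 3.34 TPM in progenitors or at day 2. Whether reads were counted by strand is not stated, so reads in the shared stretch could be split between the genes either way. The other members lie at chr4:124656807-124660655 (Pou3f1, plus strand), chr4:22482313-22487484 (Pou3f2, minus strand) and chrX:110814275-110818128 (Pou3f4, plus strand).

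Depth ran from 448250 to 1391635 reads in R9 libraries and from 567129 to 4245818 in R10 libraries, so 1 read was worth 0.719 to 2.23 CPM in R9 and 0.236 to 1.76 CPM in R10. The marker sums parted progenitors from stem cells, although Sox1 and Sox2 went against their list. Markers of pluripotent cells (10 genes) summed to 14.7 to 33.7 CPM in progenitors and 10648 to 13443 CPM in stem cells. Markers of neural progenitors (10 genes) summed to 5227 to 8391 CPM in progenitors, with Sox1 at 0 in all 8, and to 276 to 554 CPM in stem cells, where Sox2, which pluripotent cells also express, was called higher in both chemistries (133 against 36.8 CPM in R10). Mitochondrial genes took 0.153 to 0.319% of reads in the 4 wild-type R10 libraries and 0.124% in the R10 stem cell library whose label has no n number. In all other R10 libraries the share was 0.729 to 2.35%. That stem cell library and the wild-type R10 libraries stand apart in this respect.

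In progenitors all 5 genes were expressed and Pantr1 was far above the 4 Pou3 genes. Per length, Pantr1 summed to 657 to 1432 TPM over its transcripts in the 4 R9 progenitor libraries and to 694 to 1104 TPM in the 4 R10 libraries. No Pou3 gene exceeded 139 TPM in any of the 8. The mean TPM in R10 progenitors was 91.7 for Pou3f4, 81.9 for Pou3f1, 46.7 for Pou3f2 and 21.0 for Pou3f3. In R9 progenitors it was 46.2 for Pou3f1, 26.3 for Pou3f4, 24.8 for Pou3f3 and 12.6 for Pou3f2. Pou3f3 was thus among the lower members per length in both chemistries, while its neighbour gave the highest level. The TPM of the Pou3 genes lean in part on short transcripts, described below. Of the 91.7 TPM of Pou3f4 in R10, 74.6 came from 1 transcript that lies mostly past the annotated end of the gene.

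Pantr1 stood at 654 CPM and 309 CPM in the wild-type R9 progenitors, 412 CPM in OKMS and 686 CPM in OKS, a mean of 515 ± 184 (SD, n = 4). In R10 it stood at 421 CPM and 506 CPM in wild type, 508 CPM in OKMS and 583 CPM in OKS, a mean of 505 ± 66.3 (SD, n = 4). The chemistries overlapped. Pou3f3 gave 40.1 and 18.4 CPM in wild type, 16.2 CPM in OKMS and 27.0 CPM in OKS in R9 (25.4 ± 10.9, SD, n = 4). In R10 it gave 18.4 and 12.1 CPM in wild type, 27.7 CPM in OKMS and 29.8 CPM in OKS (21.99 ± 8.26, SD, n = 4). Pou3f1 was at 62.1 ± 34.2 CPM (SD, n = 4) in R9, where the wild-type libraries held both the lowest value, 17.4, and the highest, 98.7. In R10 it was at 59.8 ± 8.15 CPM (SD, n = 4). Pou3f4 was at 38.3 ± 4.61 CPM in R9 and 98.2 ± 20.5 CPM in R10 (SD, n = 4 each), and Pou3f2 at 11.3 ± 1.54 and 28.2 ± 15.9 CPM (SD, n = 4 each).

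Over the 10 conditions sequenced with both chemistries, no member differed between them beyond an exact two-sided sign-flip test after adjustment over the 5 members. Pou3f4 came closest, 0.73 higher in R10 on the log2(CPM + 1) scale and higher in 9 of 10 conditions (exact p = 0.0352, adjusted p = 0.176).

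**Figure D1:**
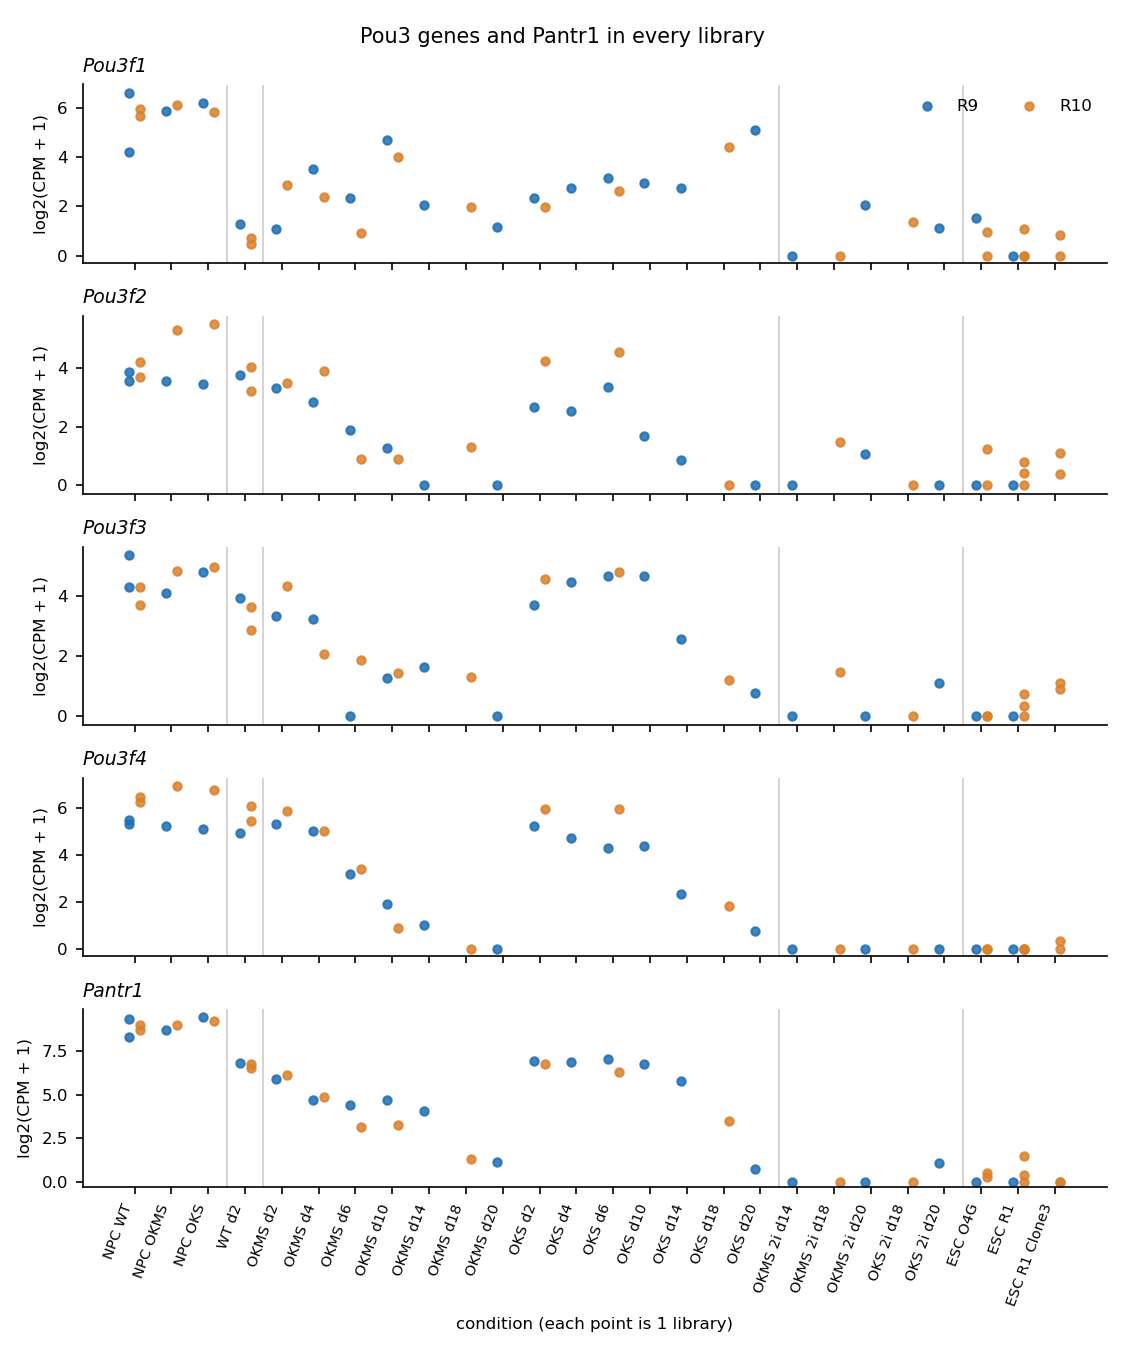
Expression of the 5 genes as log2(CPM + 1) in each of the 45 libraries, by condition, with R9 libraries in blue and R10 libraries in orange. Each point is 1 library. All 5 genes are high in the progenitors on the left and near 0 in stem cells on the right. In wild-type cells at day 2, Pou3f1 is at 0.391 to 1.41 CPM and Pou3f4 at 29.7 to 65.9 CPM.

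Between progenitors and stem cells all 5 genes were lower in stem cells, with the largest log2(CPM + 1) difference for Pantr1. In R10 stem cells Pantr1 averaged 0.411 ± 0.667 CPM (SD, n = 7), which makes its mean in progenitors 1227-fold higher. The 7 libraries held 8 Pantr1 reads, of which 5 were in the library without an n number. Without that library the mean over the other 6 was 0.169 CPM, from 3 reads, and the ratio of means was 2992, with an exact 95% Poisson interval of 1024 to 14508 that covers counting error only. The ratio of means for Pou3f4 was 2370, from 1 read in stem cells, with an interval of 425 to 93611 made the same way, so this ratio does not rank Pou3f4 and Pantr1. In R9 the 2 stem cell libraries held no read of Pantr1, Pou3f2, Pou3f3 or Pou3f4. Against the floor of 3 reads over the group, Pantr1 was at least 366-fold lower there, Pou3f4 at least 27.2-fold, Pou3f3 at least 18.05-fold and Pou3f2 at least 8.01-fold.

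In R10 the range over the 7 stem cell libraries was 0 to 1.12 CPM for Pou3f1, 0 to 1.34 CPM for Pou3f2, 0 to 1.16 CPM for Pou3f3 and 0 to 0.290 CPM for Pou3f4, the last from 1 read. No stem cell library reached the lowest progenitor library for any member. With limma on log2(CPM + 1), where a call needs a log2 difference of at least 1 and, after Benjamini-Hochberg adjustment, p under 0.05, all 5 members were called lower in R10, beside 45.8% of the 15415 genes tested that were called and 23.5% that were called lower. All 5 passed the filter of 1 CPM in 4 libraries through the progenitors, so the filter fixed their direction and nothing is read from that count. Run without a filter, limma also called all 5 lower. The difference (stem cells minus progenitors) was -8.58 ± 0.27 (SE) for Pantr1 (limma adjusted p = 6.62e-13), rank 11 from the lowest of all genes tested. It was -6.56 for Pou3f4, -5.51 for Pou3f1, -4.12 for Pou3f2 and -4.004 for Pou3f3. Without the library that has no n number, Pantr1 differed by -8.76 and the Pou3 genes by -6.55 to -3.93, with all 5 calls kept.

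In R9 all 5 were also called lower, beside 36% of the 15746 genes tested called and 18.4% called lower, with -8.94 for Pantr1 (rank 7), -5.29 for Pou3f4, -4.97 for Pou3f1, -4.64 for Pou3f3 and -3.61 for Pou3f2. Here too the members passed the filter (1 CPM in 2 libraries) through the progenitors alone, and all 5 were called lower without a filter. Pou3f1 in R9 lost its call without the R1 stem cell library (limma adjusted p = 0.0707). In these bulk libraries, fewer cells of a type and less RNA per cell cannot be told apart.

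The other POU genes did not move as a group. Of 12 listed genes of the other POU classes, 8 were in the table and 5 tested in R10. Pou5f1 (Oct4), which sustains pluripotency, rose from 1.85 ± 1.65 CPM (SD, n = 4) in progenitors to 989 ± 103 CPM (SD, n = 7) in stem cells. Pou2f1 (Oct1) and Pou2f3 were called higher as well, Pou4f2 and Pou6f1 lower. Of 22 listed neural transcription factors and genes known as targets of Pou3 proteins, 16 were tested in R10, 13 were called lower and 1, Sox2, higher. Their median difference was -4.38, against 0.0059 over all genes. Fabp7, a fatty acid carrier of radial glia, differed by -11.31, Nfia by -7.28, Sox11 by -6.32 and Sox9 by -6.14.

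When wild-type progenitors spent 2 days in serum medium, Pantr1 and Pou3f1 fell while Pou3f2, Pou3f3 and Pou3f4 did not pass the test. These cells are labelled wild type and carry no OKMS or OKS construct. Reseeding, gelatin, serum, LIF, doxycycline and the loss of EGF and FGF-2 came together and cannot be told apart. Pantr1 was at 90.4 and 109 CPM in the 2 treated R10 libraries and at 113 CPM in the R9 library. Every one lay below the lowest wild-type progenitor library of its chemistry, 421 CPM in R10 and 309 CPM in R9. Pou3f3 was at 11.4 and 6.26 CPM in the treated R10 libraries, below the 12.1 and 18.4 CPM of the wild-type progenitors by a narrow margin, and at 14.1 CPM in R9, below the 18.4 and 40.1 CPM there. By replicate number in R10, Pou3f3 went from 18.4 to 11.4 CPM in number 2 and from 12.1 to 6.26 CPM in number 3. Pou3f1 was at 0.391 and 0.659 CPM in R10 and 1.41 CPM in R9, from 3 reads and 1 read in all. Pou3f4 was at 43.1 and 65.9 CPM in R10, against 75.0 and 88.4 CPM in the wild-type progenitors, and at 29.7 CPM in R9, against 38.8 and 44.5 CPM. All 3 treated libraries thus lay below the wild-type progenitors of their chemistry for Pou3f3 and Pou3f4 as well.

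In R10 limma gave -2.20 ± 0.22 (SE) for Pantr1 (adjusted p = 0.00314) and -5.23 ± 0.38 (SE) for Pou3f1 (adjusted p = 0.00154). Pou3f3 gave -0.75 ± 0.44 (SE, adjusted p = 0.246), Pou3f4 -0.60 (adjusted p = 0.162) and Pou3f2 -0.32 (adjusted p = 0.615). The 2 calls stand beside 26.8% of the 14688 genes tested that were called and 11.9% called lower. Both treated libraries held under 1 CPM of Pou3f1, so it passed the filter (1 CPM in 2 libraries) through the progenitors alone. The filter thus fixed the direction of its call. The calls rest on 2 libraries against 2, which this fit did not pair by replicate number. Leaving out any 1 of the 4 gave an adjusted p of 0.0577 to 0.171 for Pantr1, with differences of -2.07 to -2.34, and ended the call of Pou3f1 in 3 of 4 cases. Over all genes, leaving out 1 library left 0 calls in 3 of the 4 cases and 1141 in the other, without WT replicate 3 at day 2, against 3940 with all 4. In R9, with 1 treated library against 2, limma called no member, beside 9.4% of 16625 genes. Pantr1 differed by -1.98 (adjusted p = 0.304) and Pou3f1 by -4.15 (adjusted p = 0.325). On recovered reads of the same R9 libraries, edgeR gave -2.15 for Pantr1 and DESeq2 -2.18. In all R9 fits of this comparison the lone treated library is assumed to vary like the progenitors, so their p-values hold no replicate of the treated arm.

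Markers of other cell types moved with this change. The astrocyte markers (8 genes, led by Clu, Gfap and Aldoc) summed to 1281 to 1505 CPM in the wild-type R10 progenitors and to 8056 to 8422 CPM after 2 days, with 4 of 8 called higher. Those of the oligodendrocyte lineage (7 of 9 genes in the table) summed to 373 to 519 CPM before and 226 to 276 CPM after, with 3 called lower (Olig1, Olig2 and Cspg4) and 2 called higher. The mesenchymal markers (8 genes) went from 22.5 to 44.2 CPM up to 134 to 364 CPM, with 3 of 7 tested called higher. In each of the neural progenitor and neuron lists 1 marker was called higher (Vim and Tubb3) and 1 lower (Nes and Elavl4). Their part in the fall of Pantr1 and Pou3f1 was not tested. Of 17 neural transcription factors and Pou3 targets tested here, 4 were called lower (Sox3 by -3.40, Dll1 by -2.97, Sox11 by -1.87 and Nes) and 1 higher (Nfix, by 1.70). Their median was -0.33, against 0.12 over all genes.

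The factors themselves added no change that passed the test. At day 2, OKMS gave 58.8 CPM of Pantr1 in R9 and 68.8 CPM in R10, and OKS gave 120 and 107 CPM. The wild-type values lay above OKMS in both chemistries. The R9 value (113 CPM) was below OKS, and of the R10 values 90.4 CPM was below OKS and 109 CPM above it. For Pou3f3 the OKMS and OKS libraries gave 9.04 and 12.0 CPM in R9 and 19.0 and 22.4 CPM in R10. In R10 both lay above the wild-type libraries, and in R9 both lay below. Against wild-type cells at day 2, limma in R10 gave -0.21 for Pantr1 (adjusted p = 0.842), 1.19 for Pou3f3 (adjusted p = 0.335) and 1.83 for Pou3f1 (adjusted p = 0.203), and called none of the members, beside 0.74% of 15402 genes. The mitochondrial share differed between these R10 arms as given above, and its part was not tested. In R9, where the lone wild-type library is assumed to vary like the others, limma called none of 17695 genes, 0% in all, while 1507 had an unadjusted p under 0.05, edgeR called 133 and DESeq2 14.

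Before induction, 1 member was called between factor-carrying and wild-type progenitors, in R10. There, Pou3f2 was at 38.2 CPM in OKMS and 45.0 CPM in OKS progenitors against 17.5 and 12.1 CPM in wild type. The difference passed the test (1.45 ± 0.25, SE, limma adjusted p = 0.0297), beside 1.51% of 14017 genes called and 1.43% called higher. The call was lost when any 1 of the 4 libraries was left out (adjusted p from 0.0695 to 0.632) and after quantile normalization (adjusted p = 0.124), and the mitochondrial share differed between these arms too. Pou3f3 was at 27.7 and 29.8 CPM against 18.4 and 12.1 CPM, with no overlap, and did not pass (0.90, limma adjusted p = 0.130). Of the marker lists, mesenchymal markers summed to 106 to 140 CPM in these factor-carrying progenitors and 22.5 to 44.2 CPM in wild type, neuron markers to 519 to 540 CPM and 315 to 352 CPM, and formative epiblast markers to 137 to 159 CPM and 56.5 to 77.5 CPM. Single genes were called higher, Col3a1 of the mesenchymal, Clu of the astrocyte and Sall2 of the formative list, with Hes1 of the neural factors. Their part was not tested. In R9, Pou3f2 lay between 10.1 and 13.6 CPM in all 4 progenitor libraries. There limma called 0 of 14014 genes, 0%, with 396 at an unadjusted p under 0.05, while edgeR called 3 and DESeq2 0. Whether the change of medium differed between factor-carrying and wild-type lines was tested as an interaction. No member was called in R10, where limma called 0% of 14392 genes (1155 at an unadjusted p under 0.05 and 136 by DESeq2), or in R9 (0.134% of 14970).

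**Figure D2:**
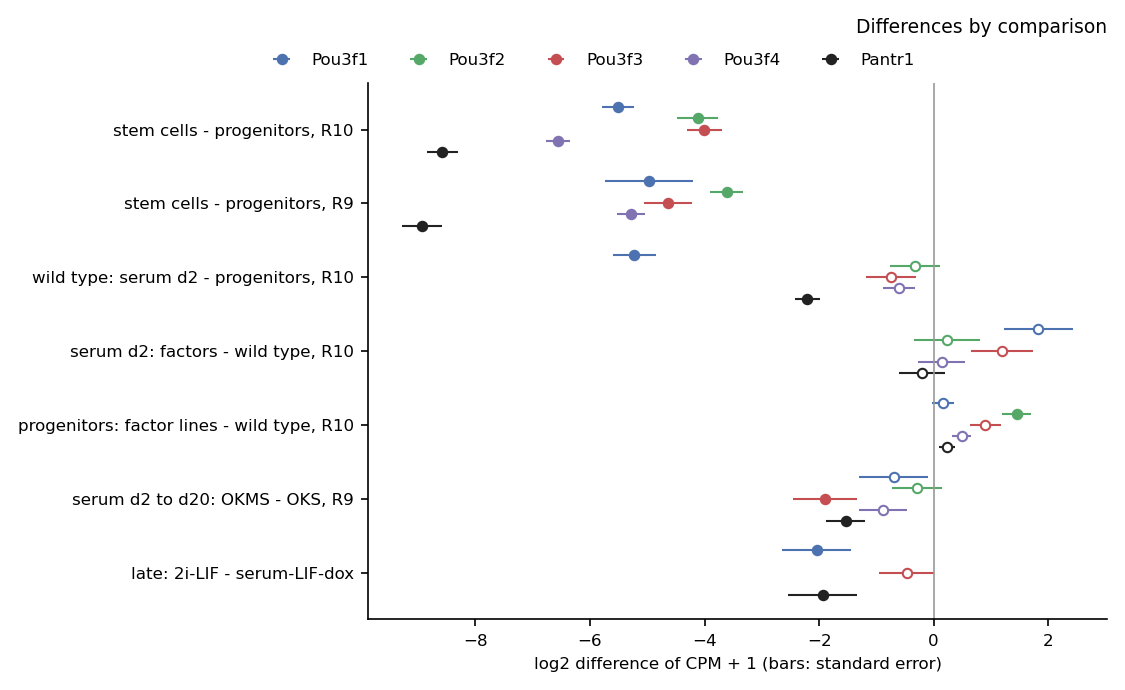
Log2 differences of CPM + 1 for the 5 genes in 7 comparisons, with standard errors as bars. Filled points passed the limma test and open points did not. Genes without a point in the last comparison were below the expression filter. Pantr1 (black) lies at -2.20 in wild-type cells after 2 days in serum medium, while Pou3f2, Pou3f3 and Pou3f4 lie between -0.75 and 0 with open points.

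The direct test of whether the lncRNA followed its neighbour compared their ratio within each library. In progenitors, Pantr1 took 94.2 to 96.2% of the reads of the pair in R9 and 94.8 to 97.7% in R10. After 2 days in serum medium it took 88.9% in wild-type R9 cells (80 of 90 reads, exact Clopper-Pearson 95% interval 80.5 to 94.5%), 86.7% in OKMS and 90.9% in OKS. In R10 it took 88.8% and 94.6% in wild type, 78.4% in OKMS and 82.7% in OKS (287 of 347 reads, interval 78.3 to 86.5%). Such intervals cover counting error only. All 7 day 2 libraries lay below all 4 progenitor libraries of their chemistry.

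The log2 ratio of Pantr1 to Pou3f3 (CPM + 1) fell from a mean of 4.41 over 8 progenitor libraries to 2.79 over 7 day 2 libraries. The difference within chemistry was -1.61 (exact two-sided permutation p = 0.000408, the smallest that 2450 permutations can give, adjusted p = 0.000875 over 15 such tests). The labels do not say whether R9 and R10 libraries of a condition share RNA or a culture. If they do, the libraries pooled in this and the later tests over both chemistries are not independent, and the p is too small. The day 2 libraries of these tests hold induced OKMS and OKS cells beside wild type, so medium and factors are mixed in them. As a share of reads, with no pseudocount, the difference was -8.09 percentage points with the same p. Alone, the R9 libraries gave a log2 ratio difference of -1.40 and the R10 libraries -1.82, each with an exact permutation p of 0.0286. Counted over whole genes, the fall of Pantr1 was larger than that of Pou3f3 in these libraries. The transcripts of Pou3f3 did not move alike, as given below. The wild-type libraries alone had log2 ratios of 3.99 and 4.00 before and 2.91 after in R9, and of 4.44 and 5.28 before and 2.89 and 3.92 after in R10. The ratio did not differ between chemistries over 10 conditions beyond the test (R10 minus R9 -0.55, higher in R10 in 3 of 10, exact sign-flip p = 0.215, adjusted p = 0.293).

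**Figure D3:**
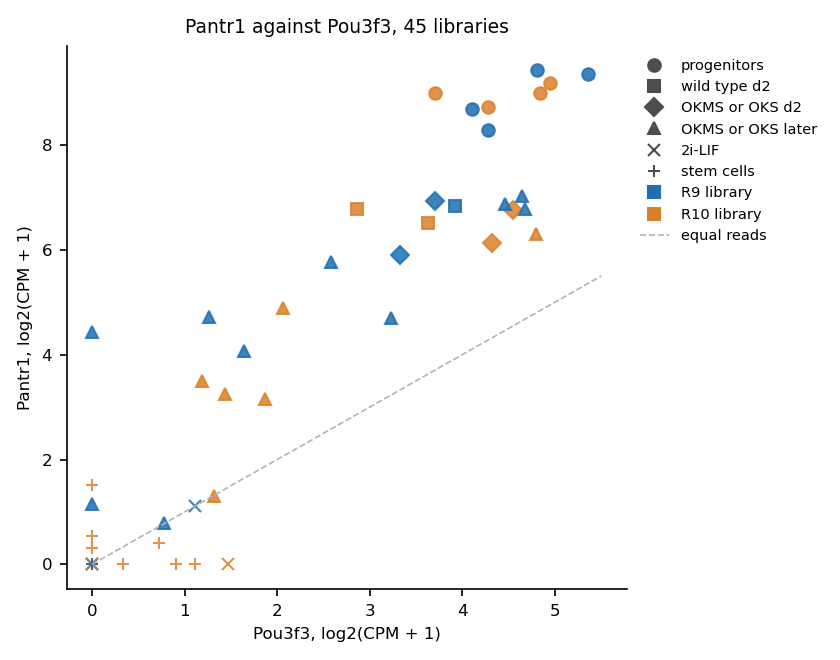
Pantr1 against Pou3f3 in the 45 libraries, both as log2(CPM + 1), with symbols for the condition and colours for the chemistry. The dashed line marks equal reads of both. Progenitors lie above the line, with a mean log2 ratio of 4.41 and a range of 3.99 to 5.28. The day 2 libraries lie nearer to it, with a mean of 2.79, and stem cells are near the origin.

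The Pantr1 transcripts, grouped by first exon, differed in how far they fell. Of 39 Pantr1 transcripts in the table, 19 are spliced and have a first exon that overlaps the near one printed above, 6 have one that overlaps the far one, and 14 have another. This grouping was made after the transcript values had been seen, so the p-values of the classes given below may be too small. The leading transcript in progenitors, Pantr1.G576.70, belongs to the far class. It has 3 exons and 717 bases, and stood at 431 ± 150 TPM in R9 and 272 ± 116 TPM in R10 (SD, n = 4 each). The next, Pantr1.G576.76, belongs to the near class, and its first exon extends upstream of the annotated one, to 350 bases from the Pou3f3 start. It is a full-splice match of ENSMUST00000188153 with 3 exons and 1092 bases, at 180 ± 37.0 TPM in R9 and 226 ± 32.7 TPM in R10 (SD, n = 4 each).

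Transcripts with the far first exon summed to 649 ± 222 TPM (SD, n = 4) in R9 progenitors and to 35.3 ± 20.9 TPM (SD, n = 3) at day 2. In R10 they summed to 378 ± 172 TPM (SD, n = 4) and 20.3 ± 11.3 TPM (SD, n = 4). Those with the near first exon summed to 394 ± 132 TPM (SD, n = 4) and 154 ± 47.4 TPM (SD, n = 3) in R9, and to 464 ± 22.6 TPM (SD, n = 4) and 154 ± 37.5 TPM (SD, n = 4) in R10. Both classes fell, and the far class fell more.

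Of the TPM in both classes, the near class held 33.1 to 43.3% in R9 progenitors and 45.4 to 71.9% in R10 progenitors, the upper end of which was wild type. At day 2 it held 79.0 to 89.9% in R9 and 80.1 to 95.5% in R10, with no overlap. The mean share was 47.5% before and 85.7% after. The difference within chemistry was 37.8 percentage points (exact two-sided permutation p = 0.000408, adjusted p = 0.000875, n = 7 against 8), with 44.7 points in R9 alone and 30.9 points in R10 alone (exact permutation p = 0.0286 each). As a share of all Pantr1 TPM it was 25.2 points (exact permutation p = 0.00122). The share of the single transcript Pantr1.G576.70 went from 34.5% to 8.45%. It was picked as the leading transcript of these same progenitors, which favours a fall, so its test is not read. It also held most of the far class in progenitors (431 of 649 TPM in R9, 272 of 378 TPM in R10). The tests of the far class and of the near share therefore carry part of the same lean. No test of the near share passed between chemistries (4.11 points higher in R10, exact p = 0.363) or between systems at days 2 to 14 (12.7 points higher in OKMS, in 4 of 5 day pairs, exact p = 0.125, where 0.0625 is the smallest possible).

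The classes were also set against Pou3f3 in the same TPM units. From progenitors to day 2, log2(TPM + 1) differed by -4.27 for the far class and by -1.48 for the near class (exact permutation p = 0.000408 each, adjusted p = 0.000875). For Pou3f3 it differed by -0.58 (exact permutation p = 0.267, adjusted p = 0.333). Pou3f3 TPM lean on short transcripts. At day 2 in R10 its 406-base transcript stood at 7.18 ± 1.94 TPM (SD, n = 4) and its 7409-base transcript at 0.248 TPM. In R10 progenitors they stood at 9.30 and 0.143 TPM. The 406-base one lies in the stretch shared with Pantr1, which also limits the ratios to Pou3f3 given next. Some others fell further. The 3-exon Pou3f3.G573.41 went from 4.46 to 0 TPM in R9 and from 1.17 to 0.104 TPM in R10. The 2478-base coding Pou3f3.G573.90 went from 3.99 to 1.33 TPM and from 0.465 to 0.0725 TPM. Pou3f3.G573.58 rose in R9, from 2.46 to 4.57 TPM, and fell in R10, from 2.09 to 1.29 TPM. These levels are low, and no single Pou3f3 transcript was tested at day 2. The ratio of the far class to Pou3f3 fell by 3.68 on the log2 scale (exact permutation p = 0.000408, adjusted p = 0.000875). The ratio of the near class to Pou3f3 differed by -0.90 (exact permutation p = 0.0445), which did not pass after adjustment over the 15 tests (adjusted p = 0.0834). In R9 alone it differed by -0.65 (exact permutation p = 0.343). In R10 alone it differed by -1.14, with all 4 day 2 libraries below all 4 progenitor libraries (exact permutation p = 0.0286, the smallest possible).

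Later in serum medium the near class held most of the TPM in both classes in each library with at least 5 TPM of Pantr1. In R9 OKS cells it held 78.7% at day 4, 67.1% at day 6, 65.8% at day 10 and 81.8% at day 14. In R9 OKMS cells it held 74.9%, 81.9%, 89.3% and 100% on those days. The last OKMS value rests on 17.7 TPM of Pantr1 in all. As a share of all Pantr1 TPM, with the 14 other transcripts counted, the near class held 52.6 to 65.8% in OKS on those days, but 31.4% at day 4 and 47.0% at day 6 in OKMS, then 78.4% and 78.1%. In R10 the near class held 62.7 to 79.4% in OKMS at days 4, 6 and 10, 77.1% in OKS at day 6 and 72.2% in OKS at day 18. Below the limit of 5 TPM, OKMS at day 20 in R9 went the other way, with 3.72 TPM of Pantr1, all in the far class. No Pantr1 TPM was listed in OKS at day 20 in R9 or in OKMS at day 18 in R10.

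**Figure D4:**
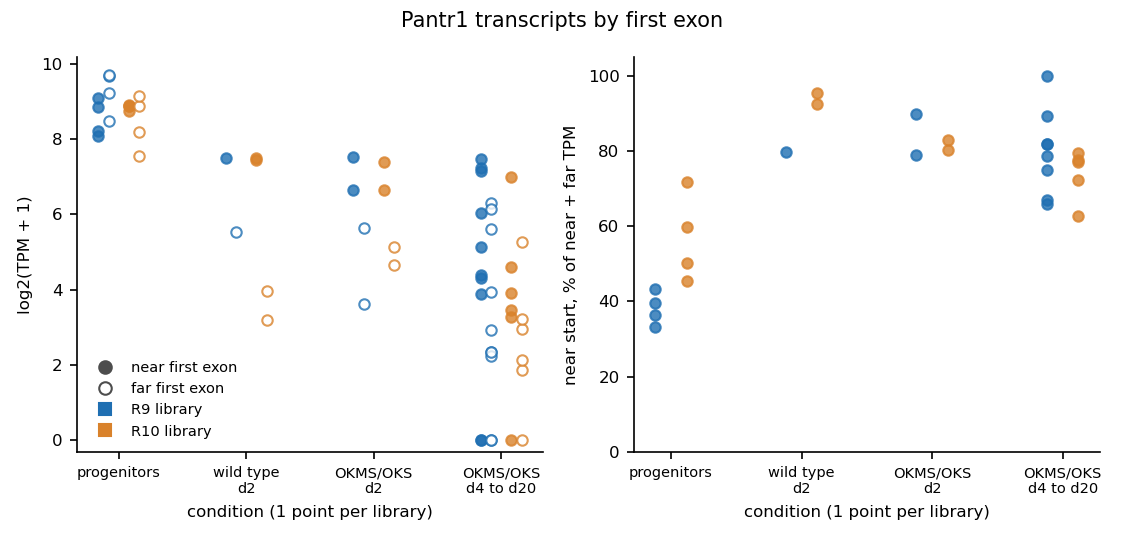
Pantr1 transcripts by first exon in progenitors and in serum medium, 1 point per library, R9 in blue and R10 in orange. The left panel gives the summed level as log2(TPM + 1), filled for the first exon near Pou3f3 and open for the far one. The right panel gives the near class as a percentage of both, for libraries with at least 5 TPM of Pantr1. The near share is 33.1 to 71.9% in progenitors and 79.0 to 95.5% at day 2.

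The Pou3 genes gave few transcripts that could be compared. All 7 transcripts of Pou3f1 and all 7 of Pou3f2 had 1 exon, like the genes themselves, as did 11 of 16 for Pou3f3 and 5 of 6 for Pou3f4. The leading Pou3f3 transcript, Pou3f3.G573.45, had 406 bases. The leading Pou3f4 transcript, Pou3f4.G56549.28, had 954 bases at the 3′ end of the deposited span, chrX:110817059-110818012. Most of it lies past the GENCODE end of Pou3f4 at 110817207. It stood at 10.4 ± 6.51 TPM in R9 progenitors and 74.6 ± 29.2 TPM in R10 progenitors (SD, n = 4 each). The leading transcripts of Pou3f1 and Pou3f2, Pou3f1.G36850.9 and Pou3f2.G34981.18, also gave more TPM in R10 (23.3 and 41.8) than in R9 (4.73 and 7.27). The second Pou3f1 transcript, Pou3f1.G36850.1, went the other way, with 16.9 ± 7.18 TPM in R9 and 10.6 ± 3.82 TPM in R10 (SD, n = 4 each), and its mean over the 8 progenitor libraries (13.7 TPM) was close to that of the leader (14.0 TPM). The second transcripts of the others were Pou3f4.G56549.1, at 13.0 ± 6.20 TPM in R9 and 14.4 ± 4.69 TPM in R10 (SD, n = 4 each), Pou3f3.G573.41, with 3 exons, at 4.46 and 1.17 TPM, and Pou3f2.G34981.11, at 0.392 and 2.77 TPM. Between stem cells and progenitors in R10, 25 of the 75 transcripts of the members passed the filter of 1 TPM in 4 libraries. All 25 were called lower, beside 39.8% of 58952 transcripts called and 16.4% called lower. They passed through the 4 progenitor libraries, so their direction was fixed by the filter.

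The time course in serum medium was read in R9, with OKMS and OKS each sampled at days 2, 4, 6, 10, 14 and 20. In OKS, Pantr1 held a plateau, with 120, 116, 130 and 109 CPM at days 2, 4, 6 and 10, then 53.8 CPM at day 14 and 0.719 CPM at day 20. In OKMS it was at 58.8 CPM at day 2, 25.04, 20.5 and 25.3 CPM at days 4, 6 and 10, 15.8 CPM at day 14 and 1.23 CPM at day 20. The OKS value exceeded the OKMS value on every day up to 14, and both were within 1 read of 0 at day 20.

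Pou3f3 in OKS was at 12.0, 21.0, 24.1 and 24.5 CPM at days 2, 4, 6 and 10, within the range of the R9 progenitors from day 4 to day 10, then at 4.96 and 0.719 CPM. In OKMS it was at 9.04 and 8.35 CPM at days 2 and 4 and at no more than 2.11 CPM from day 6. In the OKS cells Pou3f3 was thus in the progenitor range at days 4 to 10, while Pantr1 was below its own, 309 to 686 CPM, throughout. Each day is 1 library, with 9, 22, 18 and 11 reads of Pou3f3 at days 2, 4, 6 and 10. A rise of Pou3f3 after day 2 was not tested.

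Pou3f4 fell by steps, from 36.1 CPM at day 2 to 20.1 CPM at day 10 and 0.719 CPM at day 20 in OKS, and from 38.4 to 2.81 and 0 CPM in OKMS. Pou3f2 was at most 9.37 CPM in either system after day 2 and at 0 in both at day 20. Pou3f1 did not follow the others. It was at 1.13 to 4.01 CPM at day 2, and its later high values each came from 1 system. At day 10 it was at 25.3 CPM in OKMS and 6.69 CPM in OKS, and at day 20 at 1.23 CPM in OKMS and 33.8 CPM in OKS. On the other days it lay between 3.17 and 10.4 CPM. In R10 it was at 15.3 CPM in OKMS at day 10, and at day 18 at 2.97 CPM in OKMS and 20.5 CPM in OKS.

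Over days, limma's moderated F test called Pantr1 (adjusted p = 0.000294), Pou3f4 (adjusted p = 0.00405) and Pou3f2 (adjusted p = 0.0357), beside 10.7% of 19357 genes. Pou3f1 (adjusted p = 0.127) and Pou3f3 (adjusted p = 0.127) were not called. Against day 0, Pantr1 differed by -2.65 ± 0.58 (SE) at day 2 (limma adjusted p = 0.0248) and by -8.09 at day 20 (adjusted p = 1.36e-05). Pou3f3 differed by -0.94 at day 2 (adjusted p = 0.697), by -0.61 at day 4 (adjusted p = 0.875) and by -4.06 at day 20 (adjusted p = 0.0172). Pou3f1 differed by -4.35 at day 2 (adjusted p = 0.0356) and by -2.23 at day 10 (adjusted p = 0.262). Pou3f2 lost its call without day 2, 14 or 20 (adjusted p = 0.0510, 0.0657 and 0.201) and with DESeq2 (adjusted p = 0.0690), and Pou3f3 gained one with edgeR (adjusted p = 1.26e-04) and without day 6 (adjusted p = 0.0442). Markers moved over the same days. At the day of their largest difference, 8 of 10 pluripotent markers were called higher, 6 of 10 neural progenitor markers lower and 1 (Sox2) higher, and of 8 mesenchymal markers 4 higher and 2 lower. Of 8 astrocyte markers 2 were called higher and 2 lower, of 9 neuron markers 3 higher and 2 lower, and of 7 oligodendrocyte lineage markers 2 lower. Pluripotent markers summed to 16.2 to 33.7 CPM at day 0 and 638 to 9320 CPM at days 14 and 20, and mesenchymal markers to 94.2 to 133 CPM at day 0 and 1079 to 1368 CPM at day 2. Their part was not tested. These day 0 libraries also serve as progenitors in the comparisons above.

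Between the systems, both neighbours were lower in OKMS. Paired by day, Pantr1 differed by -1.53 ± 0.34 (SE, limma adjusted p = 0.00607) and Pou3f3 by -1.90 ± 0.56 (SE, adjusted p = 0.0242), beside 18% of 14277 genes called and 11% called lower. Pou3f4 (-0.89, adjusted p = 0.127), Pou3f1 (-0.70, adjusted p = 0.412) and Pou3f2 (-0.30, adjusted p = 0.643) were not called. The Pou3f3 call was lost without the pair of day 4, 6 or 10 (adjusted p from 0.0505 to 0.0954) and without a filter (adjusted p = 0.0516). Both calls rest on the pairing by day. Without it limma gave an adjusted p of 0.315 for Pantr1 and 0.135 for Pou3f3, and called 2 genes in all against 2567. Their log2 ratio did not differ between systems beyond the test (0.37 higher in OKMS, in 3 of 6 day pairs, exact sign-flip p = 0.531, with 0.03125 the smallest possible). Of 17 neural transcription factors and Pou3 targets tested, 9 were lower in OKMS and 1, Insm1, higher, with a median of -1.06 against -0.11 over all genes. Markers of other cell types moved too. Astrocyte markers were lower in OKMS in 5 of 8 and higher in 1 (Gja1), and mesenchymal markers were lower in 5 of 7. Over days 4 to 20, the astrocyte sum was 138 to 1153 CPM in OKMS and 333 to 3220 CPM in OKS, and the mesenchymal sum 155 to 803 CPM and 807 to 3607 CPM. Oligodendrocyte lineage markers were lower in 4 of 6, neural progenitor markers in 3 of 8 and neuron markers in 2 of 6, with another 2 neuron markers higher. Pluripotent markers were higher in 4 of 10 (Dppa5a, Nanog, Utf1 and Zfp42). Their part was not tested.

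Across these 12 R9 libraries, log2(CPM + 1) of Pantr1 and Pou3f3 gave Pearson's r = 0.839 (permutation p = 0.000380, adjusted p = 0.000940 over the 4 coefficients) and Spearman's rho = 0.869 (permutation p = 0.000470). Without the 2 libraries farthest from the median of Pou3f3, r was 0.863 (permutation p = 0.000240). Across the 8 R10 libraries of days 2 to 18, r was 0.900 (exact permutation p = 0.00213, adjusted p = 0.00284) and rho 0.810 (exact permutation p = 0.0218), and without 2 libraries r was 0.814 (exact permutation p = 0.0403). The libraries share system and day. Within OKMS, r was 0.688 (n = 6, exact permutation p = 0.0944, adjusted p = 0.189) and rho 0.667 (exact permutation p = 0.161). Within OKS, r was 0.925 (n = 6, exact permutation p = 0.0222, adjusted p = 0.0889) and rho 0.600 (exact permutation p = 0.242). No coefficient within a system passed after adjustment.

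The R10 series had fewer days. In OKMS, Pantr1 was at 68.8, 28.7, 7.95, 8.49 and 1.48 CPM at days 2, 4, 6, 10 and 18, and Pou3f3 at 19.0, 3.19, 2.65, 1.70 and 1.48 CPM. In OKS, Pantr1 was at 107, 77.7 and 10.2 CPM at days 2, 6 and 18, and Pou3f3 at 22.4, 26.9 and 1.28 CPM. As in R9, OKS cells at day 6 had Pou3f3 in its progenitor range (12.1 to 29.8 CPM in R10). Pantr1 was below its own progenitor range (421 to 583 CPM in R10). At that day Pantr1 made up 74.3% of the reads of the pair (182 of 245 reads, interval 68.3 to 79.6%), the lowest share among the libraries with at least 20 reads of the pair.

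In cultures moved to 2i-LIF the members were at or near 0. Pantr1 was at 0 in 4 of the 5 libraries and at 1.16 CPM, 1 read, in OKS at day 20. Pou3f3 did not exceed 1.76 CPM, Pou3f2 1.76 CPM and Pou3f1 3.22 CPM, and Pou3f4 was at 0 in all 5. Against serum cultures of the same system, day and chemistry (5 pairs), limma called Pou3f1 (-2.04 ± 0.60, SE, adjusted p = 0.0296) and Pantr1 (-1.94 ± 0.60, SE, adjusted p = 0.0356) lower, beside 12.3% of 14935 genes called and 6.32% called lower. Pou3f3 was not called (-0.47, adjusted p = 0.587), and Pou3f2 and Pou3f4 were below the filter. Pou3f1 and Pantr1 passed the filter (1 CPM in 5 libraries) mainly through the serum cultures, which favours a lower call. Cell type markers moved in the same comparison. Pluripotent markers were higher in 2i-LIF in 8 of 10 and lower in 1 (Utf1). Mesenchymal markers were lower in 4 of 7, astrocyte markers in 3 of 5, neuron markers in 3 of 6, neural progenitor markers in 3 of 8 and formative epiblast markers in 3 of 5. In 2i-LIF the mesenchymal sum was 15.0 to 24.4 CPM in R9 and 17.6 to 36.0 CPM in R10. In serum cultures of days 14 to 20 it was 155 to 3607 CPM and 160 to 680 CPM. That R9 range includes the OKS culture of day 14, which is in none of the 5 pairs. The part of the markers was not tested. The Pantr1 call was lost without OKMS day 14, OKMS day 18 or OKS day 18 (adjusted p = 0.187, 0.0550 and 0.159) and under 3 other settings. Against stem cells, only Pou3f1, Pou3f2 and Pou3f3 were tested in R10 and only Pou3f1 in R9. The other members, Pantr1 among them, were below the filter. None of those tested was called, beside 9.06% of 15880 genes in R10 and 0.711% of 15479 in R9. Both arms were near 0.

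The genes whose pattern was most like that of each neighbour were listed by the mean of Pearson's r over the 22 R9 and the 23 R10 libraries, among 14626 genes. These coefficients are descriptions across libraries that share the contrast of progenitors with pluripotent cells, and they carry no test. For Pantr1 the nearest were Tnc (0.981), an extracellular matrix glycoprotein of neural progenitors and glia, Serpine2 (0.978), a secreted protease inhibitor, 9330188P03Rik (0.975), Pde4b (0.974), which degrades cyclic AMP, and Ptn (0.973), a secreted growth factor. For Pou3f3 they were the homeobox gene Hlx (0.949), Ncald (0.947), novelGene_Ncan_AS (0.941), which is named as antisense to Ncan, the SOX gene Sox5 (0.936) and Sardh (0.935). Pantr1 ranked 19 for Pou3f3 (0.921), while Pou3f3 ranked 143 for Pantr1. Pou3f4 ranked 37 for Pantr1 (0.947) and 2 for Pou3f2 (0.933). Pou3f1 stood apart, at rank 2325 for Pantr1 (0.693), and in its own list the nearest member was Pantr1, at rank 220.

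Around Pou3f3 the other genes were low or did not share the pattern. Pantr2, a second lncRNA 2254 bases beyond the end of Pou3f3, was at 4.71 ± 2.22 CPM in R10 progenitors (SD, n = 4), at 1.73 ± 2.05 CPM in R9 progenitors (SD, n = 4) and at 0 in all stem cells. It was called lower in R10 stem cells (-2.44, beside -8.58 for Pantr1), but it passed the filter through the progenitors alone, which fixed that direction. After 2 days in serum medium it was at 16.8 and 5.27 CPM in the wild-type R10 libraries against 7.94 and 2.87 CPM before, a difference of 0.85 that did not pass (limma adjusted p = 0.393). The genes novelGene_Pou3f3_AS and Gm20646 overlap Pou3f3 and are uncertain without strand, and means of at most 5.11 CPM were found for them in wild-type R10 cells in either medium. Mrps9, a mitochondrial ribosomal protein gene 146431 bases away, was at 71.9 CPM in R10 progenitors and 113 CPM in stem cells (0.64, under the size required for a call).

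Other transcription factors with a divergent or overlapping lncRNA were set beside the pair. In R10, 6 listed pairs including this one were tested between stem cells and progenitors. Both genes were called lower in 3 of them, Pou3f3 with Pantr1, Nr2f1 with A830082K12Rik (-4.81 and -5.04) and Zeb2 with Zeb2os (-4.21 and -2.001). The genes of these 3 averaged at most 0.456 CPM in stem cells and passed the filter through the progenitors. Their direction was thus fixed, and nothing is read from that count. In the other 3 (Sox2, Vax2 and Zfhx2) 1 gene of each was called. In R9, 5 pairs were tested. Both genes were called lower in the pairs of Pou3f3, Nr2f1 and Zeb2 and higher in that of Vax2 (1.43 for Vax2 and 3.84 for Vax2os), while of the Zfhx2 pair the factor alone was called. The 3 pairs called lower passed the filter through the progenitors there too. After 2 days in serum medium, Nr2f1 was called higher (1.28) with its lncRNA at 1.10 and not called, Zeb2os (1.67) and Sox2ot (2.76) were called higher while Zeb2 (0.60) and Sox2 (0.76) were not, and Emx2 and Zfhx2 with their lncRNAs were not called. Among the 6 pairs tested there, Pantr1 was the only lncRNA called lower in that comparison. Differences within these other pairs were not tested.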

How the data were processed

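Long-read RNA sequencing covered 22 R9 and 23 R10 libraries. Per the submitters' processing notes, minimap2 2.24-r1122 and the build mm10 were used. The roles of other steps are not given in the sources used here. The gene table was deposited as CPM and the transcript table as TPM. CPM values were whole multiples of 1 read within 0.02 reads (100% of values), which gave reads and depths, while TPM carry a length correction and no depth. The gene table held 13 columns that were not used and 20 names that had been turned into numbers. Groups came from the labels.

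Genes with at least 1 CPM in as many libraries as the smaller arm were tested with limma 3.58.1 (eBayes with trend, R 4.3.3) on log2(CPM + 1), which understates changes of low genes, with Benjamini-Hochberg adjustment over all genes. The time course used the F test with system as a term, OKMS and OKS were blocked by day, and 2i-LIF pairs by pair. Ratios and transcript shares were compared by exact two-sided permutation within chemistry or sign flips over pairs. All were checked on simulated data. Results were recomputed with edgeR 4.0.16 and DESeq2 1.42.0 on recovered reads, with a pseudocount of 0.25, with quantile normalization, without a filter, at a minimum of 5 CPM or TPM, with other blocks, in the other chemistry and without each library, pair or day. The interaction, the first exon classes and the coefficients within a system were added after the data had been seen.

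Named genes were the members, genes within 200 kb of Pou3f3, the 5 nearest by correlation, the 2 leading transcripts per member, at most 4 called genes per list and every tested pair of a factor and its lncRNA. The members and lists were chosen with earlier results of these data known. The labels do not say whether replicate numbers 2 and 3 of the wild-type R10 libraries mark the same culture in both media. The mitochondrial share was 0.272% and 0.319% in the libraries numbered 2, and 0.153% and 0.165% in those numbered 3. The libraries may thus be paired, and the main fit did not pair them. The sequence of the first exon far from Pou3f3 is not reported here.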

Additional observations from a re-analysis of the deposited data

Results flagged for a closer look

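Over 20 sets of values (the 5 genes, each in every group of 4 to 10 libraries), 2 single libraries lay farther from the rest of their group than Dixon's limit allows. For well-spread values chance alone marks about 1 in 20 sets. Among the 7 R10 stem cell libraries, the R1 library without an n number (replicate 3) had 1.87 CPM of Pantr1, from 5 reads, and the others 0 to 0.448 CPM. Its mitochondrial share of reads, 0.124%, was also apart from the 1.81 to 2.35% of the other 6. In the same group, R1-Clone3 replicate 1 had 0.290 CPM of Pou3f4, which is 1 read, and the other 6 libraries had none. With 1 read among libraries at 0 the limit is always passed, so that rate does not apply there.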

How the results depend on the processing

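The calls of all 5 members between stem cells and progenitors, and the day 2 fall of the Pantr1 to Pou3f3 ratio, kept direction and side of the threshold under every alternative run, apart from Pou3f1 in R9 without the R1 stem cell library. Leaving out 1 library moved Pantr1 in wild-type cells at day 2 in R10 between -2.34 and -2.07, without a call in any of the 4 cases. In R9, with 1 treated library assumed to vary like the progenitors, it passed with edgeR (-2.15) and DESeq2 (-2.18) but not with limma, which adds no replicate of the treated arm. With a replicate block for the wild-type R10 pairs, Pantr1 (-2.20) and Pou3f1 (-5.23) kept their calls. A block cannot move the differences in this balanced design. Pou3f3 (-0.75), Pou3f2 (-0.32) and Pou3f4 (-0.60) stay under the size a call needs, so they could not gain one. Over all genes the block gave 5605 calls against 3940. The deviations of same-numbered libraries from their group means correlated at 0.474 across genes, with 2 pairs of libraries. The smallest groups had 1 to 3 libraries, and 1 read was worth up to 2.23 CPM, which limits what can be seen in low genes.

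For other results the cause of a change was not tested unless fewer samples or genes made it. Leave-outs ranged from -0.52 to 0.11 for Pantr1 between factors and wild type at day 2 in R10, from -0.91 to 0.18 for Pou3f3 and from -0.30 to 0.78 for Pantr1 (-0.13 without OKS) between uninduced R9 lines, and from -0.44 to 1.03 for Pou3f3 between 2i-LIF and stem cells in R10. In the time course Pou3f3 was called by edgeR (-5.52) and without day 6 (-4.06). Between OKMS and OKS, Pou3f3 lost its call without a filter (-1.90), without the day block (-1.90) and without the pair of day 4 (-2.03), 6 (-1.35) or 10 (-1.60), and Pantr1 without the day block (-1.53). Between 2i-LIF and serum medium, Pantr1 lost its call without a filter (-1.94), with quantile normalization (-1.77), with DESeq2 (-3.26) and without the pair of OKMS day 14 (-1.41), OKMS day 18 (-2.10) or OKS day 18 (-1.55). The 25 member transcripts called became 16 at a minimum of 5 TPM, 12 in R9, and 4 to 25 when a library was left out, the 4 each time a progenitor library was missing from the filter.

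The other differences that changed sign were not called. Leave-outs gave Pou3f2 -0.75 to 0.10 in wild-type R10 cells and -0.19 to 0.66 between factors and wild type in R10. Quantile normalization gave it -0.084 in wild-type R9 cells. Between factors and wild type in R10, Pou3f4 gave -0.031 with edgeR, -0.035 with DESeq2 and -0.16 to 0.44 in leave-outs. Between uninduced R9 lines, Pou3f1 ranged from -0.58 to 1.86 in leave-outs. Leave-outs between 2i-LIF and stem cells ranged from -0.47 to 1.06 (R9) and from -0.41 to 0.95 (R10) for Pou3f1, and from -0.56 to 0.91 for Pou3f2 in R10. In the R9 interaction Pou3f1 gave 0.65 with edgeR and 0.66 with DESeq2, and Pou3f3 0.075 and 0.072.

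Counts of called genes moved by over 1.5 times in several comparisons. Wild type at day 2 in R9 went from 1562 (1472 higher, 90 lower) to 2577 with edgeR (1358 higher, 1219 lower), 805 with DESeq2 (385 and 420) and 299 at 5 CPM. Factors against wild type in R10 went from 114 to 29 with quantile normalization and 464 with DESeq2, and uninduced lines in R10 from 212 to 39 with quantile normalization. The time course went from 2078 to 4573 with edgeR, OKMS against OKS from 2567 to 2 without the day block, and 2i-LIF against stem cells in R10 from 1438 to 270 with edgeR and in R9 from 110 to 22 without a filter.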
